A study of Mus musculus with 9 samples.

Results

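Receptor tyrosine kinases known from fibroblasts were followed in mouse embryonic fibroblasts (MEFs) that differed in the copper importer Ctr1 and in treatment with a copper chelator. They were taken as the 10 rows of the deposited count table, of 52661 gene rows in all, whose Ensembl identifiers map to Pdgfra, Pdgfrb, Fgfr1, Fgfr2, Egfr, Igf1r, Insr, Met, Axl and Ddr2. All 10 receptors passed the filter on low counts, so no member is missing from any test. In BCS-treated Ctr1-null cells Met and Igf1r mRNA were lower than in wild type cells, by 0.80 and 0.46 on the log2 scale. Both calls were lost when certain single libraries were left out. In that comparison 15.8% of all genes tested passed, 7.28% lower and 8.56% higher. No receptor passed the test between untreated Ctr1-null and wild type cells or between treated and untreated Ctr1-null cells. In these comparisons only 0.0109% and 0.0543% of all genes tested passed. Without wild type replicate 1, Pdgfra and Met passed between untreated Ctr1-null and wild type cells, beside 17.3% of all genes tested. Pdgfra differed more between libraries than any other receptor here, and most of that difference lay inside the wild type group.

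The study used RNA sequencing of 9 libraries in 3 groups of 3. The first group was Ctr1 -/- MEFs treated with bathocuproine disulfonic acid (BCS), a copper chelator, at 500 µM for 48 hours. The second was untreated Ctr1 -/- MEFs and the third untreated wild type MEFs. The titles of both groups of null cells carry the name FloxedCtr1, and the series record gives the BCS dose in mM where the sample labels give µM. Ctr1, encoded by Slc31a1, is the main copper importer of the plasma membrane. All 3 groups were C57BL/6 cells immortalized with T/t antigen. All were grown in DMEM with modified N2 supplement and 10 ng/ml each of EGF and FGF-2, so added ligands of Egfr and of the FGF receptors were present in every group. The labels do not say how many lines or clones of each genotype were used, so a difference of genotype and a difference of line cannot be told apart. Whether the 3 libraries of a group came from separate cultures is not stated for the untreated cells, so the p-values measure the spread between these libraries, which may be technical.

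Receptor tyrosine kinases span the plasma membrane with a ligand-binding part outside the cell and a kinase inside it. Binding of a growth factor brings receptors together as dimers, which phosphorylate each other on tyrosines. Adaptor proteins dock on these tyrosines and pass the signal to the RAS-MAPK and PI3K-AKT pathways, and copper is known to bind the MAPK pathway kinases MEK1 and MEK2. Fibroblasts are a classical setting for these receptors, with PDGF, FGF, EGF and insulin-like growth factors as mitogens.

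Library totals ran between 38962036 and 57206337 counts, at which 3 counts, the limit that a count of 0 allows, equal 0.0524 to 0.0770 CPM, the usual unit of counts scaled to the library total. Slc31a1 stood at 3.24, 2.54 and 1.69 CPM in BCS-treated null cells, 2.54, 3.88 and 1.40 CPM in null cells and 56.1, 54.8 and 54.9 CPM in wild type cells, so the 6 libraries labelled null were all far below the 3 labelled wild type. Wild type replicate 1 stood apart from the other two wild type libraries. On the first principal component, which held 46.2% of the variance, it scored -2.04, inside the range of the null libraries (-32.0 to 9.05), while wild type replicates 2 and 3 scored 67.1 and 63.3. Among fibroblast markers Vim and Col1a1 were abundant in every library, but Thy1 and Lum were under 1 CPM in all 9 and Dcn reached at most 2.31 CPM. Epithelial markers summed to 127.6 to 163.9 CPM with BCS, 151.5 to 196.8 CPM in null cells and 165.5 to 192.7 CPM in wild type cells, mostly Krt19, while Epcam, Cdh1, Krt8 and Krt14 were under 1 CPM in every library. Endothelial markers summed to 24.3 to 32.6 CPM with BCS, 26.6 to 34.1 CPM in null cells and 27.7 to 38.3 CPM in wild type cells, mostly Kdr and Tek, while Cdh5 and Vwf were under 1 CPM. None of the 3 epithelial and 4 endothelial markers tested was called in any comparison. Of all genes, 15.8% were called with BCS against wild type, 0.0109% in null against wild type and 0.0543% in BCS against null. The part of these markers in the receptor differences was not tested. Among macrophage and blood markers Adgre1 was at 0, and Ptprc and Lyz2 were under 1 CPM, in every library. That list summed to 12.5 to 22.2 CPM with BCS, 9.38 to 17.6 in null cells and 5.62 to 12.5 in wild type cells.

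**Figure D1:**
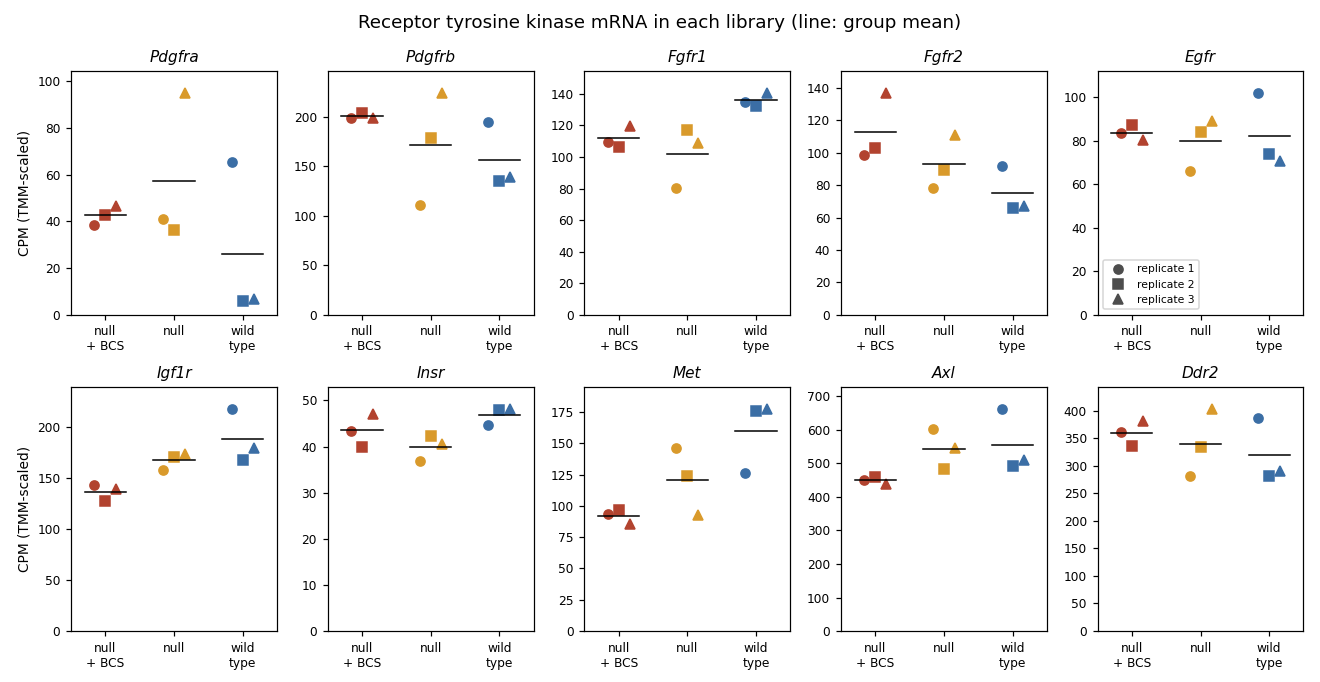
CPM scaled by TMM of the 10 receptors in each of the 9 libraries, with BCS-treated Ctr1-null, Ctr1-null and wild type libraries from left to right and a line at each group mean. Pdgfra has 2 wild type libraries at 6.11 and 6.62 CPM and all others between 36.2 and 95.0 CPM, while the 3 BCS-treated libraries of Met all lie below the 3 wild type libraries.

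Divided by the length of the principal transcript, Axl mRNA was the most abundant of the 10 in every group and Ddr2 the next. Axl, the receptor of GAS6, averaged 105.5 ± 2.35 CPM per kilobase in BCS-treated null cells, 127.4 ± 14.0 in null cells and 130.2 ± 21.8 in wild type cells (SD, n = 3 each). Ddr2, a receptor for fibrillar collagen, averaged 41.8 ± 2.63, 39.5 ± 7.10 and 37.2 ± 6.78 CPM per kilobase in the same 3 groups. The libraries of Axl and Ddr2 did not overlap in any group. Pdgfrb ranked 3 in every group, at 37.1, 31.7 and 28.9 CPM per kilobase in BCS-treated null, null and wild type cells, and its libraries overlapped those of Ddr2 in null and in wild type cells but not with BCS.

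The middle of the order held Fgfr2, Fgfr1, Met and Igf1r. In BCS-treated null cells it ran from Fgfr2 at 34.0 CPM per kilobase through Fgfr1 at 22.3 and Met at 13.5 to Igf1r at 11.9, and no libraries of these neighbours overlapped. Untreated null cells had the same order, at 28.0, 20.3, 17.8 and 14.7 CPM per kilobase, and there Fgfr1 overlapped Met and Met overlapped Igf1r. In wild type cells the order was Fgfr1 at 27.1, Met at 23.4, Fgfr2 at 22.6 and Igf1r at 16.5 CPM per kilobase, with Met and Fgfr2 overlapping. These places depend on the length used. Per kilobase of all annotated exons joined, Met ranked 4 in every group and Fgfr2 ranked 6 in BCS-treated null cells and 7 in null and in wild type cells.

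Egfr, Pdgfra and Insr were the least abundant per length. Egfr stood at 8.20, 7.82 and 8.05 CPM per kilobase in BCS-treated null, null and wild type cells. Insr, the insulin receptor, stood at 4.65, 4.27 and 5.01 CPM per kilobase. Pdgfra averaged 6.24 ± 0.58 in BCS-treated null cells, 8.41 ± 4.77 in null cells and 3.80 ± 4.98 CPM per kilobase in wild type cells (SD, n = 3 each), where its libraries overlapped those of Insr.

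No wild type cells were treated with BCS, and the libraries hold no measure of copper. The comparison of BCS-treated Ctr1-null cells with wild type cells sets loss of the importer plus chelation against untreated cells with the importer. Here 2 of the 10 receptors, Met and Igf1r, were lower at an adjusted p under 0.05 in edgeR's quasi-likelihood test and none was higher. The background in that comparison was 2916 of 18408 genes called, or 15.8%, with 7.28% lower and 8.56% higher. The median log2 fold change of the 10 receptors was -0.04, beside 0.01 for all genes tested. Leaving out wild type replicate 1, 2 or 3 gave 5840, 645 and 568 called genes and 4, 1 and 0 called receptors, and leaving out BCS replicate 1, 2 or 3 gave 796, 1959 and 640 genes and 0, 1 and 0 receptors. Without null replicate 1 or 3, which enter the shared spread, 3557 and 2576 genes and 4 and 3 receptors were called. As these are bulk samples, fewer cells of a type and less RNA per cell cannot be told apart.

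Met, the receptor of hepatocyte growth factor, had 93.7, 96.5 and 85.4 CPM in the BCS-treated null libraries, against 126.0, 175.6 and 177.1 CPM in the wild type libraries. Every treated library lay below every wild type library. The log2 fold change was -0.80 ± 0.17 (SE; 95% interval -1.18 to -0.41), or 0.576-fold, with an edgeR adjusted p of 0.0181. Untreated null libraries had 145.9, 123.9 and 92.9 CPM and so spanned the gap between the other groups. Without wild type replicate 1 the fold change was -0.95 with adjusted p = 0.00299. The call was lost without BCS replicate 1 (adjusted p = 0.0627), BCS replicate 3 (0.0789), wild type replicate 2 (0.0722) or wild type replicate 3 (0.0776), with log2 fold changes of -0.71 to -0.81.

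Igf1r, the receptor of insulin-like growth factors, had 142.7, 127.0 and 138.7 CPM in the BCS-treated null libraries, against 217.1, 167.5 and 178.7 CPM in the wild type libraries. These groups did not overlap either. Its log2 fold change was -0.46 ± 0.10 (SE; 95% interval -0.69 to -0.24), or 0.725-fold, with an edgeR adjusted p of 0.0187. Igf1r was the tighter of the pair between replicates, with an SD within groups of 0.13 on the log2 CPM scale beside 0.26 for Met. Without wild type replicate 1, its highest library, the fold change was -0.35 with adjusted p = 0.00980. The call was lost without BCS replicate 1 (adjusted p = 0.0548), BCS replicate 2 (0.0530), BCS replicate 3 (0.0658) or wild type replicate 3 (0.0590), and with scaling by library size alone (log2 fold change -0.37, adjusted p = 0.0631).

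The promoters of the lowered pair, Met and Igf1r, are shown beside that of the most variable receptor, Pdgfra, from RefSeq sequence on GRCm38.p6. The windows are the 250 bases upstream of the RefSeq start, which 7 of the 10 receptors matched (not Pdgfrb, Fgfr1 and Insr). Igf1r is printed for chr7:67952007-67952256 and Pdgfra for chr5:75152001-75152250. Met is printed for chr6:17463707-17463799, the 93 bases of its window that precede the first annotated exon. In the GENCODE annotation of the same build the genes span chr6:17463800-17573980 (Met), chr7:67952827-68233668 (Igf1r) and chr5:75152292-75198215 (Pdgfra), all on the plus strand. The RefSeq start of Met falls inside its first GENCODE exon, and those of Igf1r and Pdgfra lie upstream of the GENCODE start. Capitals mark GC boxes (GGGCGG on either strand).
Met: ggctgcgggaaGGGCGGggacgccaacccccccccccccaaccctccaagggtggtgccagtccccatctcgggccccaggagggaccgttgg
Igf1r: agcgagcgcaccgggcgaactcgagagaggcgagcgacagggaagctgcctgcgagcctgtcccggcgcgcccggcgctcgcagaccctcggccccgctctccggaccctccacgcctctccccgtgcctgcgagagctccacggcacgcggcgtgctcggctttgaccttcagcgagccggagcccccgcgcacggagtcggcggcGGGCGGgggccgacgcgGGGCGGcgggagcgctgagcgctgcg
Pdgfra: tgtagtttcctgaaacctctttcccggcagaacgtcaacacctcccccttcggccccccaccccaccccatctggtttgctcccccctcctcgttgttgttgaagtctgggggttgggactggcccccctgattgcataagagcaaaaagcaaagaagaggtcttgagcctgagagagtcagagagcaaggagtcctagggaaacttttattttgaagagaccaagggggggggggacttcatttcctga
The windows of Igf1r and Met were rich in G and C, at 77.6% and 74%, against 54.4% for Pdgfra and a median of 52.4% over 32851 mouse promoter windows. Igf1r held 2 GC boxes and Met 3 over its full window, and 32.7% of all windows held at least 1. Of the uncalled receptors, Egfr and Axl had 60.8% and 60% G and C and 1 GC box each. Fgfr2 and Ddr2 had 44% and 37.6% and no GC box, but both windows lie inside the annotated genes. That of Fgfr2 is chr7:130266809-130267058, in a gene spanning chr7:130162451-133123350 on the minus strand. That of Ddr2 is chr1:170088945-170089194, in a gene spanning chr1:169972307-170110762 on the minus strand. These windows may therefore not be the main promoters of Fgfr2 and Ddr2. Met also held 1 match to the AP-1 motif TGANTCA, 54 bases before the start and beyond the printed stretch, as did 6.75% of all windows. The TATA box (letters TATAAA) and the CCAAT box (letters CCAAT) were also searched on both strands, and occurred in 12.4% and 33.8% of all windows. Pdgfra held no match to any of the 4 motifs, and Met and Igf1r none to the TATA box or the CCAAT box. A match is a description of the letters and not a measured site.

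Fgfr2 was the receptor closest to a call in the other direction. It had 98.7, 103.1 and 137.0 CPM in BCS-treated null cells, against 92.0, 66.0 and 67.1 CPM in wild type cells, and every treated library was above every wild type library. The log2 fold change was 0.59 ± 0.18 (SE) with an edgeR adjusted p of 0.0526. It was called in 7 of 18 alternatives, among them DESeq2 (adjusted p = 0.0141), limma-voom (0.0494) and the fit without wild type replicate 1 (log2 fold change 0.76, adjusted p = 0.0104). Untreated null cells, at 78.3, 89.3 and 111.2 CPM, overlapped both groups. The annotated Fgfr2 locus shares exons with Ctbp2 on the same strand through a readthrough transcript, so the split of reads between the 2 genes rests on the authors' quantification.

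Fgfr1, the other FGF receptor of the set, went the other way in value. Its libraries stood at 109.8, 106.5 and 119.7 CPM with BCS, 80.3, 116.9 and 109.1 CPM in null cells and 135.1, 132.2 and 140.6 CPM in wild type cells, so that neither null group overlapped wild type. The log2 fold changes against wild type were -0.28 ± 0.12 with BCS (SE; adjusted p = 0.151) and -0.41 ± 0.12 without (adjusted p = 0.157), both short of a call in edgeR. DESeq2 called the untreated comparison (adjusted p = 0.0361). The BCS comparison was called when the fit held only the groups compared (adjusted p = 0.0444) and without null replicate 1 (adjusted p = 0.0268).

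With BCS, 6 of the 10 receptors did not overlap wild type, against 37.1% of all genes tested. Besides Met, Igf1r, Fgfr2 and Fgfr1 these were Axl and Pdgfrb. Axl had 451.7, 459.2 and 439.3 CPM with BCS, 601.8, 482.8 and 545.0 CPM in null cells and 661.9, 492.3 and 511.2 CPM in wild type cells. The BCS-treated libraries lay below both other groups, by -0.30 ± 0.12 against wild type (log2, SE; adjusted p = 0.122) and by -0.27 ± 0.12 against null cells (adjusted p = 0.349). Pdgfrb, the receptor for PDGF-BB, had 199.3, 203.4 and 198.7 CPM with BCS, 111.3, 178.5 and 224.2 CPM in null cells and 194.8, 134.9 and 139.4 CPM in wild type cells. Its difference of 0.36 ± 0.23 against wild type (log2, SE) had an edgeR adjusted p of 0.298, and untreated null cells covered the range of both.

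Egfr, Insr and Ddr2 showed no call and, with BCS, no separation from wild type. Egfr had 83.3, 87.4 and 80.4 CPM with BCS, 66.2, 84.0 and 89.1 CPM in null cells and 102.0, 73.9 and 70.5 CPM in wild type cells. The 95% interval of its log2 fold change with BCS against wild type ran from -0.31 to 0.36. Insr had 43.4, 40.0 and 47.1 CPM with BCS, 36.9, 42.3 and 40.6 CPM in null cells and 44.6, 47.9 and 48.1 CPM in wild type cells. Insr was the steadiest receptor, with a 1.31-fold range over 9 libraries. Ddr2 had 361.2, 335.9 and 381.1 CPM with BCS, 280.9, 334.6 and 402.7 CPM in null cells and 386.8, 281.7 and 290.8 CPM in wild type cells. Its interval with BCS against wild type ran from -0.17 to 0.51 on the log2 scale.

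**Figure D2:**
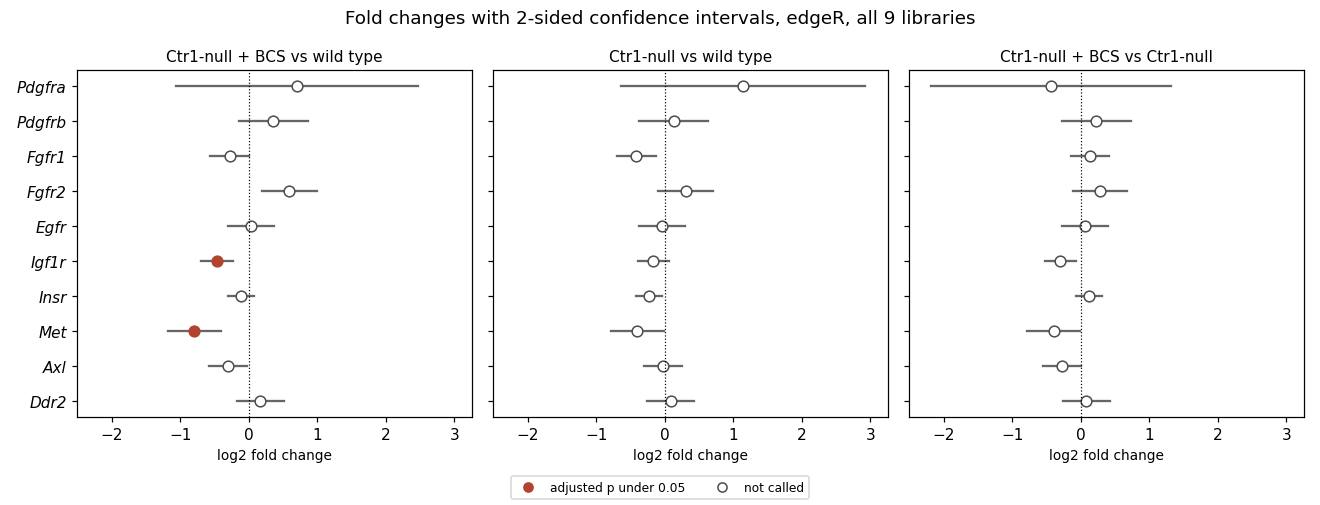
Log2 fold changes (x axis) of the 10 receptors with 95% intervals from edgeR in 3 comparisons, from left to right BCS-treated Ctr1-null against wild type, Ctr1-null against wild type and BCS-treated against untreated Ctr1-null. Met at -0.80 and Igf1r at -0.46 in the left panel are the filled points, and the interval of Pdgfra is the widest in each panel.

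Untreated Ctr1-null cells against wild type cells compare the genotypes without the chelator, and a difference of line cannot be told apart from one of genotype. None of the 10 receptors was called in edgeR, where 2 of 18408 genes were called (0.0109%). At an unadjusted p under 0.05 there were 3 receptors, beside 17.6% of all genes, and 2 receptors (Fgfr1 and Insr) had groups that did not overlap, beside 18.1% of all genes. DESeq2 called 1 receptor and limma-voom 0, beside 983 and 6 genes in all. The 3 were Fgfr1 at -0.41 ± 0.12 (adjusted p = 0.157), Insr at -0.23 ± 0.09 (adjusted p = 0.215) and Met at -0.40 ± 0.17 (adjusted p = 0.267), all log2 fold changes with SE and lower in value in null cells. The median over the 10 receptors was -0.04, beside 0.01 for all genes tested.

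BCS-treated against untreated Ctr1-null cells test the chelator in cells that already lack the importer. Again none of the 10 receptors was called in edgeR, DESeq2 or limma-voom, with 10 of 18408 genes called in edgeR (0.0543%), and 0 receptors among 183 called genes without wild type replicate 1. At an unadjusted p under 0.05 there were 2 receptors, beside 14.7% of all genes, and 2 receptors had groups that did not overlap, beside 24.3%. Igf1r had 142.7, 127.0 and 138.7 CPM with BCS, against 157.9, 170.4 and 173.2 CPM without, which is -0.30 ± 0.10 on the log2 scale (SE; adjusted p = 0.237). Met differed by -0.40 ± 0.17 (SE; adjusted p = 0.326), with the lowest untreated library, at 92.9 CPM, inside the treated range. Axl was the second receptor without overlap. Any 2 of the 3 comparisons share a group of libraries, so their fold changes are not independent.

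Pdgfra, the receptor that binds all PDGF dimers except PDGF-DD, had 38.6, 42.7 and 46.5 CPM with BCS, 41.2, 36.2 and 95.0 CPM in null cells and 65.3, 6.11 and 6.62 CPM in wild type cells. Wild type replicates 2 and 3, with 226 and 356 counts, were about 10 times below wild type replicate 1, with 3139 counts. The 15.5-fold range over 9 libraries was wider than that of 99.7% of 10789 genes of at least 5 CPM, whose median range was 1.42-fold. With all 9 libraries the log2 fold changes were 0.71 ± 0.79 for BCS against wild type (SE; edgeR adjusted p = 0.567) and 1.14 ± 0.79 for null against wild type (adjusted p = 0.472). Without wild type replicate 1 they were 2.73 (adjusted p = 0.00193) and 3.17 (adjusted p = 0.00188). BCS against null gave -0.43 ± 0.78 (SE; adjusted p = 0.842) and 0.13 without null replicate 3.

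The other receptors varied less inside the wild type group. Wild type replicates 2 and 3 were within 1.08-fold of each other for all 10 receptors. Wild type replicate 1 was above both for 7 receptors and below both for Insr and Met, at between 0.714 (Met) and 1.42 (Pdgfrb) times their mean outside Pdgfra, where it was 10.3 times. It lay inside the range of the untreated null libraries for 5 receptors, Pdgfra, Pdgfrb, Fgfr2, Met and Ddr2. Without it, null against wild type called 2 receptors, Pdgfra higher and Met lower (-0.55, adjusted p = 0.0419), with a background of 3254 of 18835 genes or 17.3% (9.22% higher and 8.05% lower). BCS against wild type then called 4, Pdgfra and Fgfr2 higher and Met and Igf1r lower, with a background of 5840 genes or 31% (15.7% higher and 15.3% lower). Whether replicate 1 or the other two stands for wild type cells was not tested.

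**Figure D3:**
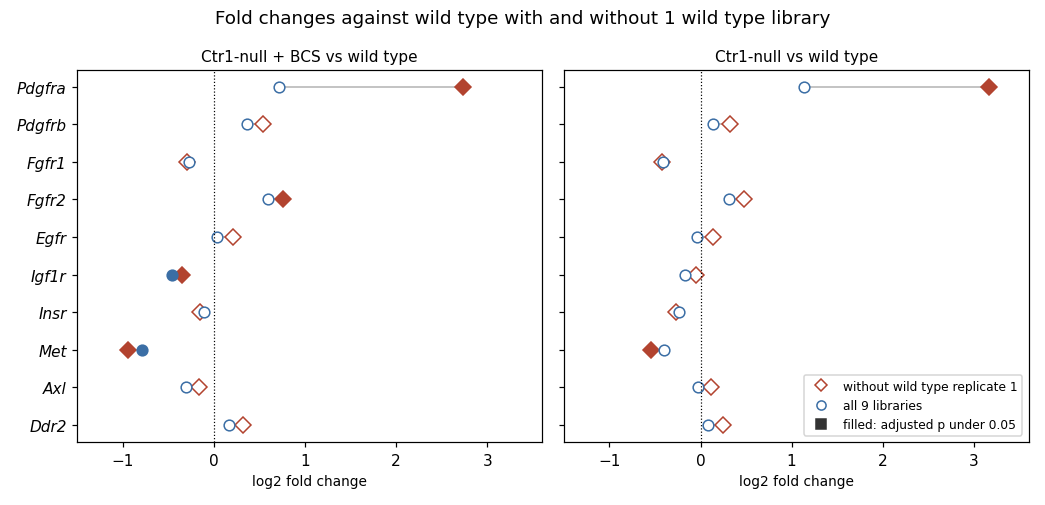
Log2 fold changes (x axis) of the 10 receptors against wild type without wild type replicate 1 (diamonds) and with all 9 libraries (circles), for BCS-treated Ctr1-null (left) and untreated Ctr1-null cells (right). Pdgfra moves from 0.71 to 2.73 and from 1.14 to 3.17 when that library is left out, and filled points have an adjusted p under 0.05.

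By Pearson correlation of log2 CPM over the 9 libraries, the 3 genes most like Pdgfra among 10779 candidates were Pcdh7 (r = 0.993), Samd5 (r = 0.992) and Jam2 (r = 0.991). Pcdh7, a protocadherin, had 31.8, 32.5 and 38.1 CPM with BCS, 33.4, 30.4 and 66.6 CPM in null cells and 56.3, 2.22 and 2.58 CPM in wild type cells. Wild type replicates 2 and 3 were the low libraries of all 4 genes and null replicate 3 and wild type replicate 1 the high ones. Over the 7 libraries without wild type replicates 2 and 3, r was 0.983 for Pcdh7, 0.969 for Samd5 and 0.901 for Jam2. These are descriptions over few libraries that share their groups and depth.

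**Figure D4:**
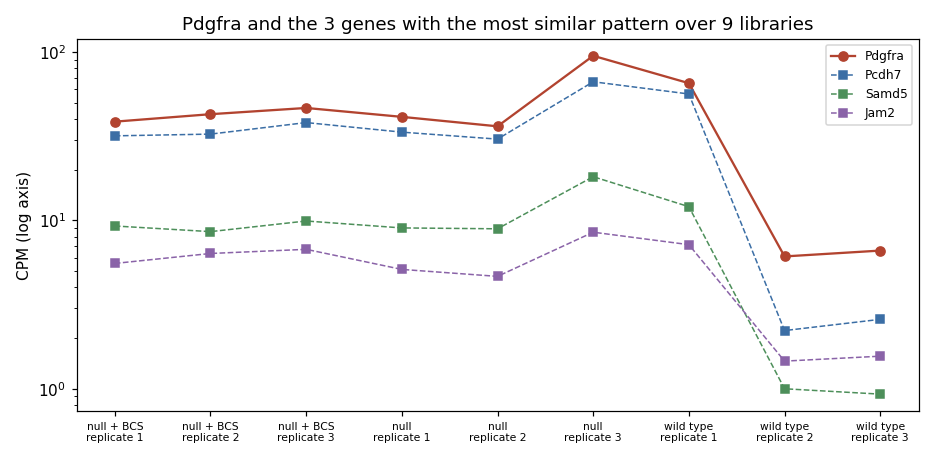
CPM on a log axis of Pdgfra and of Pcdh7, Samd5 and Jam2 in the 9 libraries, in the order BCS-treated Ctr1-null, Ctr1-null and wild type. All 4 lines drop at wild type replicates 2 and 3, where Pdgfra is at 6.11 and 6.62 CPM, and peak at null replicate 3.

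Ratios within a family do not depend on the scaling between libraries. Per length, Fgfr2 over Fgfr1 was 1.36, 1.46 and 1.73 with BCS, 1.47, 1.16 and 1.54 in null cells and 1.03, 0.755 and 0.721 in wild type cells. Every null library, treated or not, was above every wild type library, by 0.87 with BCS and 0.74 without on the log2 scale. Each had p = 0.1 in a 2-sided exact permutation test, the smallest that 3 libraries against 3 allow, and 0.225 after Benjamini-Hochberg adjustment over 9 such comparisons. Insr over Igf1r was 0.371, 0.384 and 0.414 with BCS, 0.285, 0.303 and 0.286 in null cells and 0.251, 0.349 and 0.328 in wild type cells. The treated libraries were above both other groups, each again with an exact permutation p = 0.1 and adjusted p = 0.225. Pdgfra over Pdgfrb was 0.153, 0.166 and 0.185 with BCS, 0.293, 0.160 and 0.335 in null cells and 0.265, 0.0358 and 0.0376 in wild type cells, with wild type replicates 2 and 3 below all other libraries and wild type replicate 1 inside the null range. The 3 pairs were chosen after the values had been seen.

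**Figure D5:**
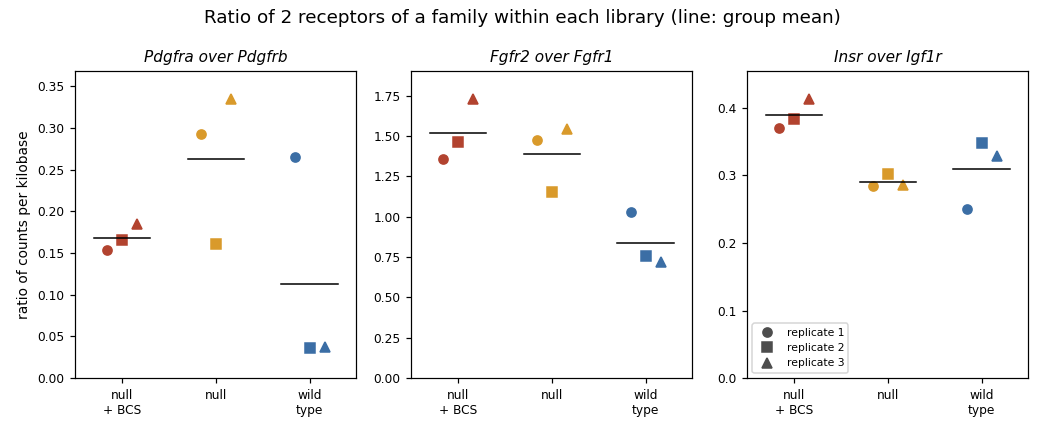
Ratio of counts per kilobase of principal transcript for 3 pairs of receptors within each library, with BCS-treated Ctr1-null, Ctr1-null and wild type libraries from left to right and a line at each group mean. Fgfr2 over Fgfr1 is 1.16 or higher in all 6 null libraries and 1.03 or lower in the 3 wild type libraries.

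In the deposited scaled table every count has been divided by a gene- and library-specific factor, whose making is not stated and whose geometric mean within a gene was 1. Relative to the median of its library, this factor ran between 0.907 (Pdgfra, null replicate 1) and 1.09 (Egfr, wild type replicate 2) over the 10 receptors. No receptor was called in any comparison of the factor by limma, where 1 of 15225 genes was called in BCS against wild type, 0 in null against wild type and 1 in BCS against null. At an unadjusted p under 0.05 there were 2 of 10 receptors with BCS against wild type, beside 7.6% of the 15225 genes, 0 in null against wild type, beside 5.22%, and 0 in BCS against null, beside 5.73%. Used as offsets in edgeR, the factors left the calls of Met and Igf1r in place.

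Ligands of the 10 receptors were listed as 27 genes, of which 24 were tested, and with BCS 3 of them were higher and 0 lower than in wild type, beside 8.56% of all genes higher and 7.28% lower. Their median log2 fold change was 0.25. Hgf, the ligand of Met, had 5.50, 5.75 and 14.0 CPM in BCS-treated null cells, against 3.20, 0.487 and 0.409 CPM in wild type cells, which is 2.61 ± 0.78 higher on the log2 scale (SE; adjusted p = 0.0484 in edgeR). All treated libraries of Hgf were above all wild type libraries, the reverse of its receptor, and without wild type replicate 1 the difference was 4.23 (adjusted p = 0.00253). The call was lost in 10 of 18 alternatives, among them the fit without BCS replicate 3, its highest library, where the difference was 2.03 (adjusted p = 0.175). Fgf18, an FGF ligand, was higher by 1.27 ± 0.29 (SE; edgeR adjusted p = 0.0209) at 1.38, 1.59 and 1.31 CPM with BCS, against 0.624, 0.568 and 0.576 CPM in wild type cells. Pdgfa, which encodes the PDGF A chain that binds Pdgfra, was higher by 0.46 ± 0.11 (SE; edgeR adjusted p = 0.0238). Collagen I, a ligand of Ddr2, had no called chain.

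In the other comparisons no ligand was called in edgeR or limma-voom. At an unadjusted p under 0.05 there were 6 of 24 for null against wild type, beside 17.6% of all genes, and 4 of 24 for BCS against null, beside 14.7%. DESeq2 called 5 and 2, beside 983 and 617 genes in all. The smallest p in null against wild type was that of Fgf5, at 0.95 ± 0.21 on the log2 scale (SE; edgeR adjusted p = 0.101), and in BCS against null that of Fgf18, at 1.12 ± 0.29 (adjusted p = 0.150). Without wild type replicate 1, null against wild type called 14 of 24 ligands, 11 of them higher, beside 17.3% of all genes called and 9.22% called higher. Fgf2, named after its values were seen, had 39.1, 18.4 and 36.8 CPM in null cells and 32.7, 6.14 and 6.82 CPM in wild type cells, the pattern inside wild type that Pdgfra also had.

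Co-receptors and ligand-binding proteins numbered 19 tested of 21, and with BCS 1 was higher and 4 were lower than in wild type, with a list median of 0.09. Of all genes, 8.56% were higher and 7.28% lower. Nrp2 and Nrp1 encode neuropilins, co-receptors for VEGF. Nrp2 was lower by -0.80 ± 0.20 (log2, SE; edgeR adjusted p = 0.0276), at 92.3, 99.3 and 116.5 CPM with BCS, against 123.0, 200.2 and 214.9 CPM in wild type cells. Nrp1 was lower by -0.50 ± 0.06 (adjusted p = 0.00486), at 265.7, 271.8 and 270.3 CPM with BCS, against 391.6, 372.4 and 375.1 CPM in wild type cells. Untreated null cells had 299.8, 302.9 and 310.2 CPM of Nrp1, between the other groups and apart from both. The heparan sulfate proteoglycans Gpc1 and Sdc4 were lower by -0.75 ± 0.16 (adjusted p = 0.0180) and -0.52 ± 0.11 (adjusted p = 0.0189). Fgfrl1, an FGF receptor without a kinase domain, was higher by 0.78 ± 0.20 (adjusted p = 0.0301).

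Downstream of the receptors, 2 of 20 adaptors and proximal effectors were called with BCS against wild type, 1 in each direction, beside 15.8% of all genes called, with a list median of -0.04. Gab2, a docking protein, was higher by 0.64 ± 0.16 (log2, SE; edgeR adjusted p = 0.0263). Pik3r1, the p85 regulatory subunit of PI3K, was lower by -0.45 ± 0.09 (adjusted p = 0.0119), at 36.9, 33.5 and 32.1 CPM with BCS, against 43.8, 47.7 and 48.6 CPM in wild type cells. Grb2, Shc1, Sos1, Frs2 and Irs1 were not called. Among 23 attenuators of receptor signalling 0 were higher and 3 lower, beside 8.56% and 7.28% of all genes, with a list median of 0.01. These were Cav1 (caveolin-1; -0.50 ± 0.15, adjusted p = 0.0475), Lrig1 (a transmembrane inhibitor of EGF receptors; -0.36 ± 0.10, adjusted p = 0.0350) and Ptpn1 (the phosphatase PTP1B, which acts on the insulin receptor; -0.33 ± 0.09, adjusted p = 0.0400). Cav1 stood at 439.3, 444.1 and 406.4 CPM with BCS, against 447.4, 685.9 and 688.5 CPM in wild type replicates 1, 2 and 3. Its call was lost in 13 of 18 alternatives, limma-voom (adjusted p = 0.0571) among them, and those of Lrig1 and Ptpn1 in 9 each.

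Of 48 other receptor tyrosine kinases, 33 were tested, and with BCS 3 were higher and 3 lower than in wild type, a share near the 15.8% of all genes. Flt4, a VEGF receptor, was lower by -0.58 ± 0.13 (log2, SE; edgeR adjusted p = 0.0195), at 41.7, 42.5 and 33.8 CPM with BCS, against 68.4, 50.9 and 57.0 CPM in wild type cells. Styk1 and Ryk, kinase-like receptors, were lower by -0.63 ± 0.17 (adjusted p = 0.0346) and -0.31 ± 0.07 (adjusted p = 0.0175). Ddr1, the collagen receptor related to Ddr2, was higher by 0.39 ± 0.09 (adjusted p = 0.0236). Aatk and Mst1r, the receptor related to Met, were higher by 2.74 ± 0.49 (adjusted p = 0.00997) and 2.63 ± 0.53 (adjusted p = 0.0148), both from low levels. Mst1r reached 0.655, 0.454 and 1.23 CPM with BCS, against 0.146, 0.162 and 0.0744 CPM in wild type cells, and with the authors' factors as offsets its difference was 1.11 with adjusted p = 0.272.

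The 19 called genes of these 5 lists depended on single libraries and on the fit. Without wild type replicate 1 all 19 remained called in the same direction. Without wild type replicate 2 there were 4, without wild type replicate 3 there were 2, and without BCS replicates 1, 2 and 3 there were 6, 12 and 2. Without null replicates 1, 2 and 3 there were 18, 14 and 17. Scaling by library size alone left 13, the authors' factors as offsets 15, a fit of only the groups compared 16, limma-voom 18 and DESeq2 19. Nrp1 and Aatk were called under every alternative that gave a value. For null against wild type and BCS against null with all 9 libraries, edgeR and limma-voom called 0 genes of these lists. At an unadjusted p under 0.05 the 19 co-receptors had 4 and 3, the 20 adaptors 1 and 2, the 23 attenuators 6 and 4 and the 33 other receptors 8 and 7, beside 17.6% and 14.7% of all genes. DESeq2 called 2 and 2 co-receptors, 0 and 1 adaptors, 1 and 0 attenuators and 2 and 1 other receptors in these comparisons, beside 983 and 617 genes in all. With no filter on low counts edgeR called 1 and 1 co-receptors, 1 and 1 other receptors and 2 and 0 ligands, beside 265 and 114 genes in all. Leaving out wild type replicate 1, null against wild type called 8 of 20 co-receptors (6 higher), 3 of 20 adaptors (1 higher), 7 of 23 attenuators (6 higher) and 11 of 33 other receptors (8 higher), beside 17.3% of all genes called, 9.22% higher and 8.05% lower. BCS against null then called 1 co-receptor (Gpc1), 1 adaptor (Pik3r1), 0 attenuators and 1 other receptor (Flt4), all lower, and 0 ligands, beside 0.972% of all genes. With all 9 libraries, the members with the smallest p in null against wild type were Nrp1, Vav3, Lrig3 and Erbb4 (adjusted p = 0.0927, 0.223, 0.146 and 0.102), and in BCS against null Gpc1, Pik3r1, Ptpn1 and Flt4 (0.0840, 0.0978, 0.208 and 0.0924).

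Markers of other cell types moved beside these differences. Of 6 fat cell markers 3 were tested, and their summed level was 55.1 to 69.5 CPM with BCS, 53.3 to 79.9 CPM in null cells and 23.7 to 25.4 CPM in wild type cells, mostly Pparg, while Adipoq, Plin1 and Cfd stayed under 1 CPM. In edgeR 2 of the 3 were called higher with BCS against wild type, Pparg and Fabp4, beside 8.56% of all genes. In null against wild type 1 was called higher, Pparg, beside 0.0109% of all genes called in either direction. Of 6 muscle and pericyte markers 4 were tested, with 2 higher and 1 lower with BCS against wild type, beside 8.56% and 7.28% of all genes. The median log2 fold change of the 4 tested was 1.35 with BCS and 0.87 in null cells against wild type, with 3 of 4 positive in each. The list sum, mostly Acta2, was instead 1630 to 1730 CPM with BCS, 1750 to 1773 in null and 2011 to 2805 in wild type cells. Myod1 was at 0. Neural markers summed to 119.7 to 145.1, 171.7 to 201.2 and 155.5 to 243.8 CPM in the same order of groups, and macrophage and blood markers to 12.5 to 22.2, 9.38 to 17.6 and 5.62 to 12.5 CPM. The neural sum was mostly Nes, whereas the median log2 fold change of the 5 neural markers tested was 0.61 with BCS against wild type. There 1 was called higher (Fabp7) and 0 lower, beside 8.56% and 7.28% of all genes. For 4 of 5 the groups did not overlap, beside 37.1% of all genes. The 3 macrophage and blood markers tested had a median of 1.13 in that comparison and 0 calls. Their part in the receptor differences was not tested. Genes antisense to Pdgfra, Fgfr1 and Ddr2 held at most 0.546% of the receptor's own counts, and whether counting used strand is not stated.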

How the data were processed

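RNA sequencing libraries of 9 samples were compared in 3 groups of 3, taken from the sample titles. The submitters' processing notes list the build GRCm38 and the tools FastQC, STAR, Salmon and DESeq2, with no versions or roles. The authors deposited estimated counts per gene, already whole numbers and not normalised, and a table of scaled signal values, equal to these counts over a gene- and sample-specific factor. Of 52661 rows, 52566 identifiers matched a symbol in GENCODE M21, ignoring versions, and 95 did not.

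The counts were filtered with filterByExpr (minimum count 10, minimum total 15), which left 18408 genes, and TMM-scaled. The quasi-likelihood test of edgeR 4.0.16 in R 4.3.3 was run on the 9 libraries together, leaving 6 residual degrees of freedom. P-values were 2-sided, adjusted by Benjamini-Hochberg over all genes tested and called under 0.05. CPM use TMM-scaled totals, and each SE is the ratio of the log2 fold change to the root of its F statistic. Floors of 3 counts stand for counting error alone, because without molecular identifiers PCR copies of 1 molecule count several times. The factor was tested in limma 3.58.1 on 15225 genes with at least 10 counts in every library. DESeq2 1.42.0 and limma-voom were alternatives, beside other scalings, filters, a replicate block and each library left out. The fit was tested on simulated data with known changes for BCS against wild type. There edgeR called 63 of 112 genes changed 2-fold, 75 of 88 changed 4-fold and 10 of 18208 unchanged genes. Simulated libraries varied independently, with none set apart from its group as wild type replicate 1 was. Recovery in the real data may therefore differ. For the factor, limma called 173 of 200 genes changed by 0.5 log2 and 9 of 15025 unchanged genes.

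Members and lists were chosen with earlier results of these data known. Of each list, up to 2 called genes per direction by size of change are named, or else the gene with the smallest p. Ddr1, Ryk, Pdgfa, Sdc4, Nrp1 (with BCS against wild type), Ptpn1 (likewise), Fgf2 and the uncalled adaptors were named after their values were seen. Figures were drawn with matplotlib 3.10.9.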

Additional observations from a re-analysis of the deposited data

How the results depend on the processing

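Of 537 alternative values of the 10 receptors, 499 kept their direction and their side of the threshold, 9 lost a call, 13 gained one and 16 changed sign, all of these uncalled. DESeq2 gave no adjusted p for Pdgfra. Genes called in Ctr1-null against wild type were 2, and 4 with DESeq2's size factors, library size only, the authors' factors or at least 1 CPM in 3 samples, 265 with no filter, 983 with DESeq2, 6 with limma-voom, 1 with only the groups compared and 1 to 3254 leaving out a library. Receptors called there were 0, 1 with DESeq2 and 0 to 2 leaving out a library. In BCS-treated Ctr1-null against wild type the 2916 genes ran between 568 (without wild type replicate 3) and 5840 (without wild type replicate 1), and the 2 receptors between 0 and 4. In BCS-treated against untreated Ctr1-null the 10 genes became 114 with no filter, 617 with DESeq2 and 0 to 183 leaving out a library. The cause of these shifts was not tested.

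With library size only, Egfr and Axl in null against wild type were 0.0066 and 0.012 on the log2 scale, beside -0.04 and -0.03. Leaving out a library, log2 fold changes in null against wild type ran from -0.11 to 0.36 for Pdgfrb, -0.14 to 0.14 for Egfr, -0.11 to 0.11 for Axl and -0.055 to 0.24 for Ddr2. In BCS against wild type Egfr ran from -0.072 to 0.21. In BCS against null they ran from -0.68 to 0.13 for Pdgfra, -0.0054 to 0.46 for Pdgfrb, -0.012 to 0.24 for Fgfr1, -0.047 to 0.15 for Egfr and -0.036 to 0.22 for Ddr2. The log2 ratio of Insr over Igf1r in null against wild type ran from -0.22 to 0.020. Leaving out a library of the ratios and of the factor was added after seeing the data.

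Same-numbered libraries of different groups had correlations of deviations of -0.319 to 0.275, and differently numbered ones of -0.287 to 0.412. With 3 libraries a group, whose deviations sum to 0, these values cannot decide whether same-numbered libraries share a batch. With the replicate block, 1 gene was called in null against wild type, 1543 in BCS against wild type and 2 in BCS against null, while Met and Igf1r kept their calls and 13 of the 19 called list genes remained called. The standard error of Pdgfra against wild type, 0.79 on the log2 scale with all 9 libraries, limits what can be called for it.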
